A study of Mus musculus with 6 samples.

Results

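The extracellular matrix of the liver was examined through 38 genes, named in a list of symbols that was chosen with earlier results of these arrays known. They encode collagens, basement membrane proteins, elastic fibre and adhesive proteins, the enzymes that cross-link or cut them, and a few signals. A gene counted as measured when a row of the array table carried its symbol alone, and where several rows did, the brightest on average over the 6 arrays stood for it. By this rule 35 of the 38 genes were measured, out of 22180 genes in all. Fbn1 and Spp1 had no row with a single symbol, and Loxl2 lay only in 2 rows that also name another gene, so these 3 genes were not analysed here.

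The samples were livers of C57BL/6 mice, 3 of wild-type and 3 of Pfn2-/- animals, described by the submitters as independent biological replicates. Pfn2 encodes profilin 2, an actin-binding protein. The sources used here give neither the design of the null allele nor the sex of the animals. No animal is labelled as treated, and age was matched across genotypes, at 9 months for replicate 1, 8.5 months for replicate 2 and 8 months for replicate 3. Each liver gave 1 Affymetrix array of total RNA, with RMA values on the log2 scale, where a difference of 1 is a factor of 2. All differences below are Pfn2-/- minus wild type with the standard error (SE) of a limma fit over all genes, and an adjusted p is Benjamini-Hochberg adjusted over all 22180 genes.

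Array medians lay between 4.36 and 4.41, and no arrays were identical. The number of arrays limits the precision, and the lower quartile of gene means, 3.80, serves below as the mark of a dim gene. The row of Pfn2 differed by -0.11 (SE 0.12) and does not separate the genotypes, so it cannot check the labels. All 12 hepatocyte markers, such as Alb and Ttr, were measured, and their mean over genes was 11.25 to 11.37 in wild-type and 11.28 to 11.30 in Pfn2-/- arrays. Of the 12, 9 had a difference below 0, beside 49.9% of all genes, with a median of -0.03. At an unadjusted p under 0.05 in limma 1 was higher, Cyp3a11 (0.38, SE 0.14), and 0 were lower. Of all genes, 2.67% were higher and 2.62% lower by that mark.

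In healthy liver the matrix is sparse. Fibrillar collagens lie around portal tracts and central veins, and a loose matrix with little continuous basement membrane lines the sinusoids. Hepatic stellate cells and portal fibroblasts make most of the collagen and, when activated in injury, deposit the scar of fibrosis under the influence of TGF-beta, while hepatocytes make much of the fibronectin. Matrix metalloproteinases cut these proteins, and tissue inhibitors of metalloproteinases (TIMPs) block them.

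Of the 38 genes, 25 had a promoter sequence in a RefSeq table of build GRCm38.p6. The 250 bases before the most upstream start in that table are shown, 5′ to 3′ on the gene's strand, for the 4 genes with the smallest p among the measured matrix genes (Postn, Fbln5, Timp3 and Col3a1) and for Col1a2, a fibrillar collagen gene with a smaller difference. Capitals mark matches on either strand to 4 short motifs: the TATA box, spelled TATAAA, the CCAAT box, the GC box, spelled GGGCGG, and the core bound by SMAD proteins, spelled CAGAC. A match on the opposite strand appears as its reverse complement.
Postn, chr3:54359017-54359266, strand +: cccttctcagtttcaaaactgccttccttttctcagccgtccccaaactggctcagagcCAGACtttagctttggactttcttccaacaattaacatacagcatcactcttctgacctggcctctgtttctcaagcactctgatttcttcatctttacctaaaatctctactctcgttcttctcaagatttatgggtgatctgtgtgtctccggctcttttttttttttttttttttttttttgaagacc
Fbln5, chr12:101819120-101819369, strand -: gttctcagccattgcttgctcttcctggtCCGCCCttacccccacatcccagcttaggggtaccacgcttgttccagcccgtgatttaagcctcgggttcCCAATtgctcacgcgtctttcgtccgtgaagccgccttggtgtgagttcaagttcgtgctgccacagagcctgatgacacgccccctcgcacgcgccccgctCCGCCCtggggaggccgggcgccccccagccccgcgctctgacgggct
Timp3, chr10:86300162-86300411, strand +: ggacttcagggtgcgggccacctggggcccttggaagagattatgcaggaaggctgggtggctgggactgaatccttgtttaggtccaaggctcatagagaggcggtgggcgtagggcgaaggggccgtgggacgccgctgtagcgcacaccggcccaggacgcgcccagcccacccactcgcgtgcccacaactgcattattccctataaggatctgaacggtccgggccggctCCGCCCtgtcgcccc
Col3a1, chr1:45311288-45311537, strand +: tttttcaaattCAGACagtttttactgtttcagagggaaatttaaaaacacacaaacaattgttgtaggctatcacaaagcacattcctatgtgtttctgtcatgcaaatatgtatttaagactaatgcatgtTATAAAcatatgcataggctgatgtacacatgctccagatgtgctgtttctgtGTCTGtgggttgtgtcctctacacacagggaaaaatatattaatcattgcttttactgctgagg
Col1a2, chr6:4505368-4505617, strand +: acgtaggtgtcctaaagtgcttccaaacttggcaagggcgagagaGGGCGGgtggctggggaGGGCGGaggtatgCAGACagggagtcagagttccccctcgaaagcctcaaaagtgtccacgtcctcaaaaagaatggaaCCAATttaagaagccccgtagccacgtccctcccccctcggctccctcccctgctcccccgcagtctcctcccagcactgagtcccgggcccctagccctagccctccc

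These 5 promoters do not share one layout. The Postn window held 1 match, a CAGAC that begins 191 bases before the start, and 40.4% of its bases were G or C. Col3a1, at 35.2% G or C, held a TATAAA that begins 117 bases before the start and CAGAC on either strand. Fbln5, Timp3 and Col1a2 were richer in G and C, at 65.2%, 65.6% and 62.0%, and held GC boxes. Fbln5 and Col1a2 had a CCAAT box as well.

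Over all 25 promoters, GGGCGG was found in 16 (64.0%), against 33.0% of the 27025 genes with a window of the same length. CCAAT was found in 11 (44.0% against 34.5%), CAGAC in 11 (44.0% against 42.2%) and TATAAA in 2 (8.0% against 13.0%). TGANTCA, the site of AP-1 factors, was found in 1, Col6a1 (4.0% against 6.85%). The CArG box bound by serum response factor was found in 1, Lama2 (4.0% against 1.41%). No motif overlapped another in the sequences shown. The median share of G and C was 62.0% in the matrix promoters and 52.0% in all of them. Whether this difference accounts for the share of GC boxes was not tested. A match is a description of the letters and not of a bound factor.

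No matrix gene passed the adjusted threshold of 0.05 between the genotypes in limma, and 0% of all genes did. Most of the values nevertheless lay below wild type: 29 of the 35 genes had a difference below 0, where 49.9% of all genes did, 5 lay above 0, and Col4a2 was equal. The median difference was -0.13, beside 0.00 over all genes. At an unadjusted p under 0.05, Postn, Fbln5, Timp3 and Col3a1 were lower and 0 matrix genes were higher, against 2.62% of all genes lower and 2.67% higher. The 4 genes make 11.4% of the 35. The list was chosen with earlier results of these arrays known, so these shares describe it and carry no test.

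Samples of the 2 genotypes did not overlap in 5 genes that were lower in Pfn2-/- (Col3a1, Col5a1, Postn, Loxl1 and Timp2), beside 4.76% of all genes. In the other direction Thbs1 alone had groups that did not overlap, beside 5.09% of all genes. Among all matrix genes the differences ran from -0.73 to 0.28. Of the 5 genes with a second, dimmer row, that row differed by -0.19 (SE 0.20) for Bgn, -0.03 (SE 0.15) for Col1a2, -0.08 (SE 0.14) for Col6a1, 0.00 (SE 0.16) for Nid1 and 0.10 (SE 0.17) for Col5a1. In bulk liver, fewer cells of a type and less RNA per cell cannot be told apart.

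**Figure D1:**
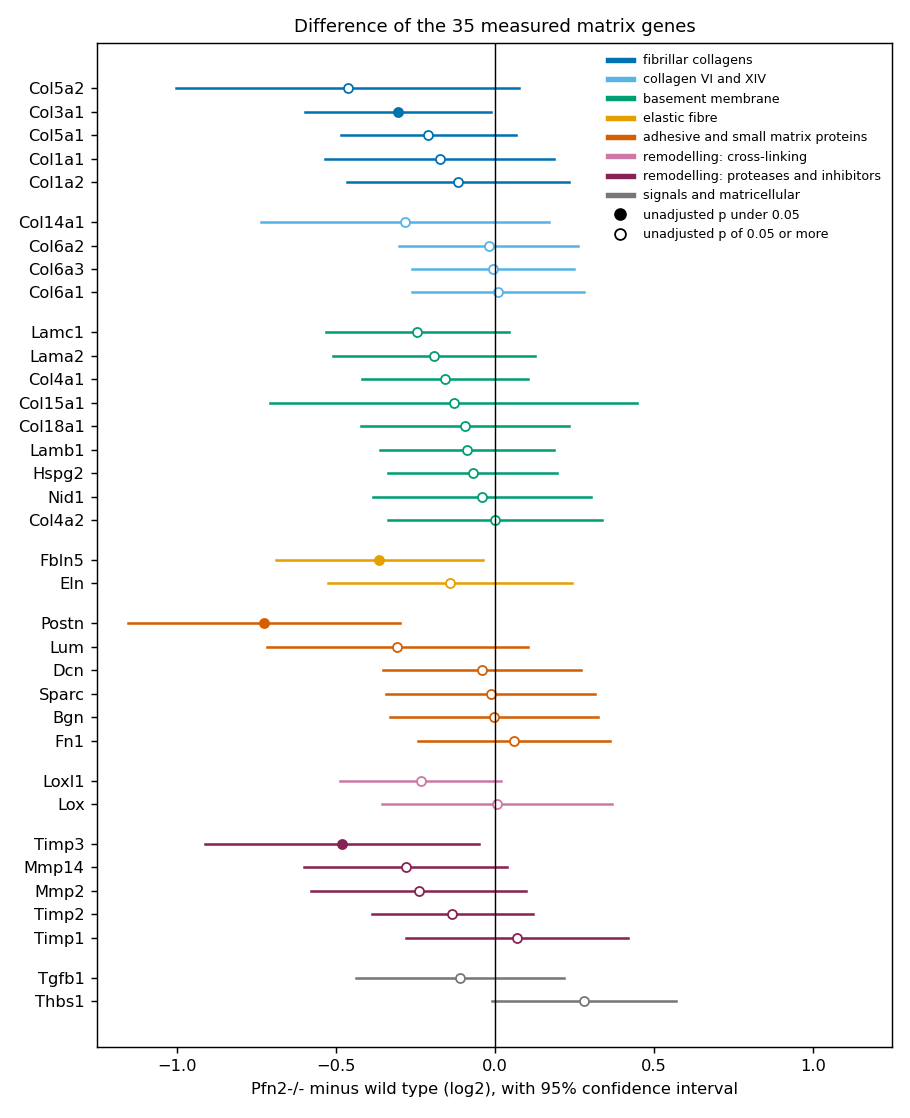
Difference between Pfn2-/- and wild-type liver (log2, horizontal axis) for each of the 35 measured matrix genes, by gene group. Points are limma estimates from 3 arrays per genotype, lines are 95% confidence intervals, and filled points have an unadjusted p under 0.05; 29 of the 35 points lie left of 0 and only 4 are filled.

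The 5 fibrillar collagen genes among the 38 all had a difference below 0, with a median of -0.21, and none passed the adjusted threshold. They encode chains of types I, III and V, which assemble into the tensile fibrils of the interstitium. Col3a1, the single chain of type III collagen, measured 6.07, 6.08 and 5.75 (log2) in wild-type replicates 1, 2 and 3, against 5.67, 5.68 and 5.64 in those of the knockout. Every knockout array lay below every wild-type array, and the knockout values were close together (SD 0.02, against 0.19 in wild type). The difference was -0.30 (SE 0.13, 95% confidence interval -0.60 to -0.01, unadjusted p = 0.0434, adjusted p = 0.92 in limma). With median centring, cyclic loess or repeated quantile normalization the unadjusted p of Col3a1 was 0.0519, 0.062 and 0.0709.

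Col1a1 and Col1a2 encode the chains of type I collagen, the main collagen of scar. Col1a1 measured 5.71, 5.44 and 5.25 in the wild-type livers against 5.24, 5.11 and 5.53 in the Pfn2-/- livers. Col1a2 measured 5.43, 5.65 and 5.11 in the wild-type livers against 5.16, 5.28 and 5.40 in the Pfn2-/- livers. For both genes wild-type replicate 3 was the lowest wild-type array and knockout replicate 3 the highest knockout array, and the genotypes overlapped. The differences were -0.17 (SE 0.16) and -0.12 (SE 0.16), each about as large as its error or smaller. Without wild-type replicate 2 the sign of Col1a2 turned (0.01).

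Type V collagen, whose chains come from Col5a1, Col5a2 and Col5a3, sets the diameter of type I fibrils. Col5a3, which is not among the 38 genes, differed by 0.03 (SE 0.12). Col5a1 measured 5.37, 5.46 and 5.51 in the wild-type livers against 5.33, 5.29 and 5.09 in the Pfn2-/- livers, with no overlap and a difference of -0.21 (SE 0.12, adjusted p = 0.953). The dimmer second row of Col5a1 lay on the other side of 0, so its direction depends on the row. Col5a2 measured 5.72, 5.43 and 4.70 in the wild-type livers against 4.62, 4.75 and 5.09 in the Pfn2-/- livers. Its difference of -0.46 (SE 0.24) was the third most negative of the matrix genes, after Postn and Timp3, but wild-type replicate 3 lay inside the knockout range.

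Collagen VI showed differences near 0. It forms beaded microfilaments next to cells from 3 chains, and its genes Col6a1, Col6a2 and Col6a3 differed by 0.01 (SE 0.12), -0.02 (SE 0.13) and -0.01 (SE 0.11). The 95% confidence interval of Col6a1 ran from -0.26 to 0.28, and so spans changes of that size in either direction. Col6a1 measured 5.95, 6.02 and 5.77 in the wild-type livers against 5.92, 5.89 and 5.96 in those of the knockout. Col14a1, which encodes a fibril-associated collagen, measured 7.83, 7.72 and 7.11 in the wild-type livers against 7.15, 7.55 and 7.11 in the Pfn2-/- livers. Wild-type replicate 3 again fell in the knockout range, and the difference was -0.28 (SE 0.20).

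Of the 9 basement membrane genes, 8 had a difference below 0, with a median of -0.09, and 0 had an unadjusted p under 0.05 in limma. Basement membranes are sheets of type IV collagen and laminin tied together by nidogen and perlecan. Col4a1 and Col4a2 encode the chains of the most common type IV network and are neighbouring genes whose annotated spans overlap. Col4a1 measured 5.60, 5.51 and 5.44 in the wild-type livers against 5.44, 5.33 and 5.31 in the Pfn2-/- livers, touching at 5.44, with a difference of -0.16 (SE 0.12). Col4a2 measured 5.43, 4.94 and 5.20 in the wild-type livers against 5.33, 5.16 and 5.08 in those of the knockout, with equal means of 5.19.

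The laminin genes Lamc1, Lama2 and Lamb1 differed by -0.24 (SE 0.13), -0.19 (SE 0.14) and -0.09 (SE 0.12). Lamc1, whose gamma 1 chain is part of most laminins, had the smallest p of the basement membrane genes (adjusted p = 0.943). Nid1, for nidogen 1, differed by -0.04 (SE 0.15) and Hspg2, for perlecan, by -0.07 (SE 0.12). Col18a1, whose protein gives rise to endostatin and which hepatocytes also express, measured 7.96, 7.70 and 7.86 in the wild-type livers against 7.98, 7.72 and 7.54 in the Pfn2-/- livers. The first pair of animals had nearly the same values, as had the second, and the difference of -0.09 (SE 0.15) turned to 0.01 without knockout replicate 3. Col15a1, a collagen of the basement membrane zone, varied most within this group, from 4.36 to 5.25 in wild type and from 4.34 to 5.17 in the knockout, and differed by -0.13 (SE 0.26).

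Among genes of elastic fibres and adhesive or small matrix proteins, Postn and Fbln5 had an unadjusted p under 0.05. Postn encodes periostin, a matricellular protein that binds collagen and integrins and is known to rise in fibrosis. It measured 6.98, 6.85 and 6.67 in the wild-type livers against 5.67, 6.43 and 6.22 in the Pfn2-/- livers. All knockout arrays lay below all wild-type arrays, and knockout replicate 1 was the lowest by a wide margin. The difference of -0.73 (SE 0.19, 95% confidence interval -1.15 to -0.30) was the largest of the matrix genes and corresponds to a 1.65-fold lower level, with an unadjusted p of 0.0037 and an adjusted p of 0.746 in limma. With each array left out in turn it ranged from -0.89 to -0.51, and its unadjusted p from 0.00112 to 0.0171.

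Fbln5, for fibulin 5, which brings elastin and its cross-linking enzymes together, measured 5.98, 5.83 and 5.54 in the wild-type livers against 5.30, 5.42 and 5.54 in the Pfn2-/- livers. The 2 replicates numbered 3 had the same value and the other arrays were separated by genotype. The difference was -0.36 (SE 0.15, unadjusted p = 0.0318, adjusted p = 0.915 in limma). Without wild-type replicate 1 it was -0.27, with an unadjusted p of 0.129, and without wild-type replicate 3 it was -0.49, with an unadjusted p of 0.00799. Eln, for elastin itself, differed by -0.14 (SE 0.17), with 4.74, 4.77 and 4.16 in wild type and 4.42, 4.33 and 4.50 in the knockout.

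Fn1, for fibronectin, the adhesive protein that hepatocytes secrete into plasma, measured 11.30, 11.08 and 11.33 in the wild-type livers against 11.38, 11.11 and 11.40 in the Pfn2-/- livers. The knockout array was higher than the wild-type array of the same age in all 3 pairs, by 0.08, 0.03 and 0.07, and the groups overlapped. The difference was 0.06 (SE 0.14), with a 95% confidence interval of -0.24 to 0.36, and turned to -0.02 without wild-type replicate 2. The small proteoglycan genes Dcn and Bgn, for decorin and biglycan, and Sparc, for a collagen-binding matricellular protein, differed by -0.04 (SE 0.14), 0.00 (SE 0.15) and -0.01 (SE 0.15). Lum, for lumican, a keratan sulfate proteoglycan and the coding gene next to Dcn, differed by -0.31 (SE 0.18), from 4.89 to 5.34 in wild type and from 4.44 to 5.06 in the knockout.

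Of the 7 measured remodelling genes, 5 had a difference below 0, with a median of -0.23, and 0 passed the adjusted threshold. Timp3, for the TIMP that binds to the matrix, measured 7.42, 7.24 and 6.68 in the wild-type livers against 6.47, 6.83 and 6.60 in the Pfn2-/- livers. Wild-type replicates 1 and 2 lay above all knockout arrays, and wild-type replicate 3 lay within the knockout range. The difference was -0.48 (SE 0.19, unadjusted p = 0.0327, adjusted p = 0.915 in limma). It was -0.33 without wild-type replicate 1 (unadjusted p = 0.136) and -0.70 without wild-type replicate 3 (unadjusted p = 0.00156).

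Timp2, whose protein takes part in the activation of Mmp2, measured 6.34, 6.36 and 6.41 in the wild-type livers against 6.21, 6.29 and 6.21 in those of the knockout. The groups did not overlap, but the difference was small, at -0.13 (SE 0.11). Mmp14, for the membrane-bound protease that activates Mmp2, measured 7.42, 7.48 and 7.62 in the wild-type livers against 7.07, 7.13 and 7.48 in the Pfn2-/- livers. Knockout replicate 3 reached the wild-type range, and the difference was -0.28 (SE 0.14). Mmp2, for gelatinase A, differed by -0.24 (SE 0.15). Timp1, which is induced in fibrosis, was dim on average, below the mark of 3.80 in 4 of the 6 arrays, and measured 3.57, 3.54 and 3.79 in the wild-type livers against 3.40, 3.82 and 3.89 in the Pfn2-/- livers, a difference of 0.07 (SE 0.16) whose sign turned without knockout replicate 3 (-0.02).

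The lysyl oxidases cross-link collagen and elastin. Loxl1, the family member tied to elastic fibres, measured 4.63, 4.72 and 4.68 in the wild-type livers against 4.40, 4.45 and 4.48 in the Pfn2-/- livers. The genotypes were separated and the spread within each was small (SD 0.05 and 0.04), with a difference of -0.23 (SE 0.11, adjusted p = 0.935) that stayed between -0.26 and -0.21 with any array left out. Lox was dim, at 3.42, 3.43 and 3.57 in wild type and 3.27, 3.34 and 3.83 in the knockout. Its difference of 0.01 (SE 0.16) turned sign under cyclic loess, repeated quantile normalization and array weights. The family members Loxl3 and Loxl4, which are not among the 38 genes, differed by 0.13 (SE 0.12) and 0.15 (SE 0.11). In both, all knockout arrays lay above all wild-type arrays.

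Of the signals, Tgfb1, for the main inducer of matrix genes, measured 6.44, 6.83 and 6.45 in the wild-type livers against 6.31, 6.56 and 6.52 in the Pfn2-/- livers. The groups overlapped and the difference was -0.11 (SE 0.15), turning to 0.02 without wild-type replicate 2. Thbs1, for thrombospondin 1, which activates latent TGF-beta, was the matrix gene with the largest difference above 0. It measured 4.09, 3.95 and 4.05 in the wild-type livers against 4.24, 4.50 and 4.19 in the Pfn2-/- livers, values below the median of gene means (4.72). All knockout arrays were above all wild-type arrays, with a difference of 0.28 (SE 0.13, adjusted p = 0.92).

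**Figure D2:**
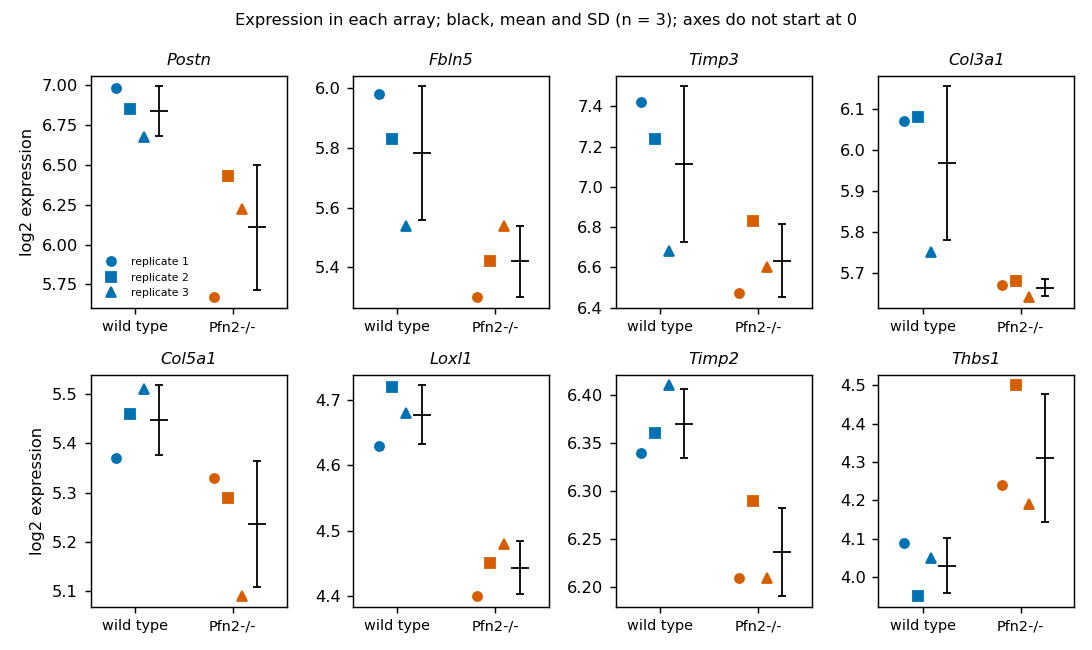
Expression (log2, vertical axis; each panel has its own scale, none from 0) of 8 matrix genes in every array, wild type in blue and Pfn2-/- in orange. Symbols mark replicates 1 to 3, aged 9, 8.5 and 8 months, and black bars give the mean and SD of 3 arrays; Postn, Col3a1, Col5a1, Loxl1 and Timp2 are separated downward and Thbs1 upward, while in Fbln5 and Timp3 wild-type replicate 3 meets the knockout values.

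The genotypes can also be compared between animals of equal age, with 1 animal of each genotype at each age and hence no test. At 9 months 31 of the 35 matrix genes were lower in the Pfn2-/- animal, with a median difference of -0.20. At 8.5 months 25 were lower, with a median of -0.15. At 8 months 16 were lower, with a median of 0.00. Of all 22180 genes, 10572, 11069 and 11288 were lower at 9, 8.5 and 8 months. The knockout was lower in all 3 pairs in 11 genes, where 12.4% of all genes were, and higher in all 3 in 2 genes, Fn1 and Thbs1, where 12.5% of all genes were.

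This unevenness was wide in the fibrillar collagens and in the elastic fibre genes. All 5 fibrillar collagens were lower in the knockout in the pair of 9 months (median -0.40) and in that of 8.5 months (median -0.37), but 2 were at 8 months (median 0.28). The 2 measured elastic fibre genes had medians of -0.50, -0.425 and 0.17 at 9, 8.5 and 8 months. Collagen VI and XIV genes had medians of -0.06, -0.11 and 0.08 at 9, 8.5 and 8 months. Basement membrane genes did not follow this order: 7, 4 and 8 of the 9 were lower in the knockout, with medians of -0.16, 0.02 and -0.13. The remodelling genes had medians of -0.17, -0.27 and -0.08.

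Values in single arrays show where these pairs differed. With each gene centred on its own mean, the fibrillar collagens averaged 0.27, 0.23 and -0.12 in wild-type replicates 1, 2 and 3 and -0.18, -0.16 and -0.04 in the knockout. Wild-type replicate 3 thus lay among the knockout arrays. It was the lowest wild-type array in 4 of the 5 fibrillar collagens and in 19 of the 35 matrix genes, beside 7405 of all 22180 genes. All matrix genes together averaged 0.16, 0.08 and -0.02 in wild type and -0.12, -0.07 and -0.04 in the knockout, so the genotypes were adjacent without overlapping. Age, replicate number and the single animal cannot be told apart here.

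**Figure D3:**
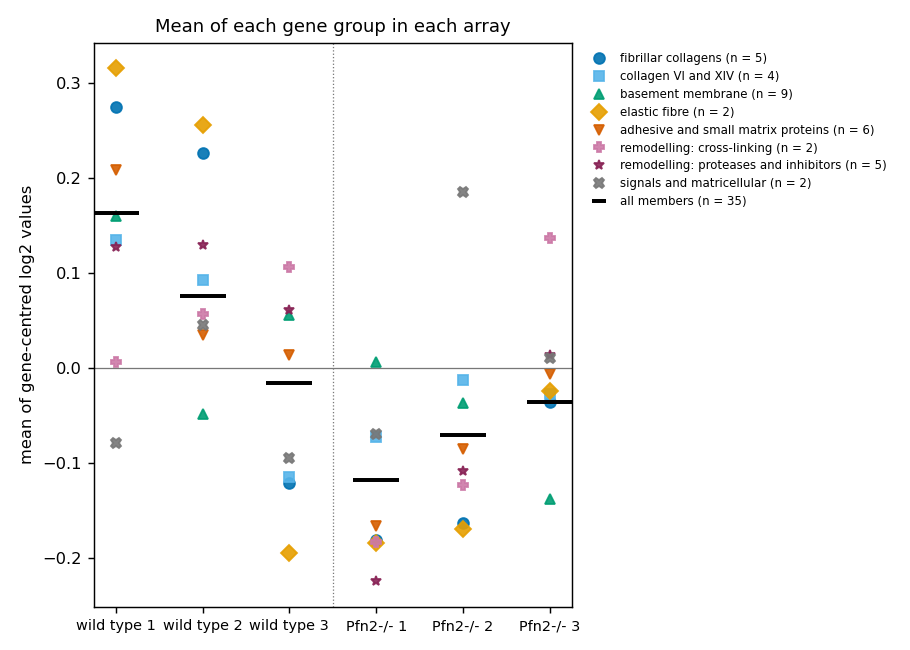
Mean of gene-centred log2 values (vertical axis) of each group of matrix genes in each of the 6 arrays, with black bars for all 35 genes. The bars run from 0.16 in wild-type replicate 1 to -0.12 in knockout replicate 1; the fibrillar collagens (circles) are high in wild-type replicates 1 and 2 and at -0.12 in wild-type replicate 3.

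Leaving out single arrays moved the number of matrix genes that were lower at an unadjusted p under 0.05. Without wild-type replicate 3 there were 7 such genes, Col14a1, Col5a2 and Eln beside the 4 named above, when 3.71% of all genes were lower by that mark. Without wild-type replicate 1, wild-type replicate 2 or knockout replicate 1 there was 1, Postn in each case, when 2.06%, 2.10% and 2.22% of all genes were lower. Without knockout replicate 2 there were 3, Postn, Timp3 and Lamc1, and without knockout replicate 3 also 3, Postn, Fbln5 and Mmp14, beside 3.17% and 2.82% of all genes. Without knockout replicate 3 the signal gene Thbs1 was higher by the same mark. No matrix gene passed the adjusted threshold in any of these 6 fits.

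**Figure D4:**
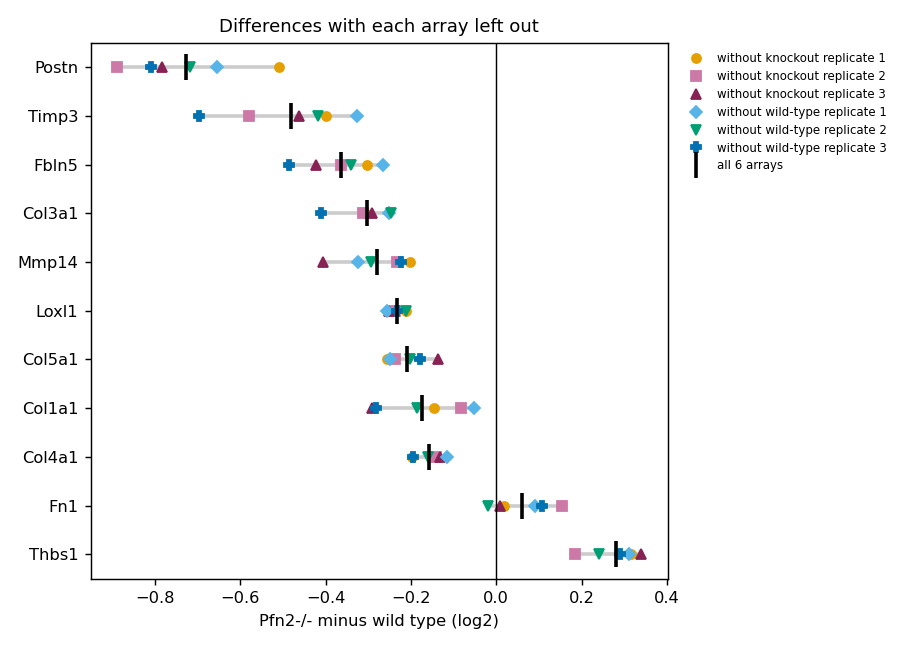
Difference between Pfn2-/- and wild type (log2, horizontal axis) of 11 matrix genes from all 6 arrays (black bars) and with each array left out in turn (coloured symbols). Postn stays between -0.89 and -0.51 and Loxl1 between -0.26 and -0.21, while Fn1 lies on both sides of 0.

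Some matrix genes lie next to each other in the genome, and their differences are given side by side, with no test between neighbours. Col3a1 and Col5a2, adjacent coding genes on chromosome 1, differed by -0.30 and -0.46. Col6a2 and Col6a1, adjacent on chromosome 10, differed by -0.02 and 0.01, and Col18a1, with 2 coding genes between it and Col6a1, by -0.09. Dcn and Lum, also adjacent on chromosome 10, differed by -0.04 and -0.31. Of these pairs and that of Col4a1 and Col4a2 on chromosome 8, none had a member past the adjusted threshold.

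Genes that make, process, bind or induce the matrix but are not among the 38 were taken from 7 further lists, of which 205 of 215 genes were measured. None of them passed the adjusted threshold in the comparison of all arrays, and the counts that follow are at an unadjusted p under 0.05, beside 2.62% of all genes lower and 2.67% higher. Of 23 measured genes of collagen synthesis and folding, 1 was higher and 0 were lower, with a median of -0.06. The higher gene was Pcolce2, for an enhancer of procollagen C-proteinase, which cuts procollagen before fibrils form. It measured 5.13, 5.18 and 5.16 in the wild-type livers against 5.76, 5.45 and 5.87 in the Pfn2-/- livers, with no overlap (0.54, SE 0.14, adjusted p = 0.746). The prolyl hydroxylase genes P4ha2 and P3h1 differed by -0.23 (SE 0.11) and -0.30 (SE 0.15).

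The 30 other collagen genes did not share the direction of the 5 fibrillar collagens among the 38. Of these 30, 22 lay above 0 and 8 below, with a median of 0.04, where 49.9% of all genes lay below. In limma 0 were past the unadjusted mark in either direction. These 30 genes were weakly expressed, with a mean of 4.48 to 4.63 in wild-type and 4.48 to 4.66 in Pfn2-/- arrays. That is below the median of gene means (4.72), and Col6a5, Col11a1 and Col28a1 were dim. The 5 fibrillar collagens had means of 5.26 to 5.66 and 5.20 to 5.35. Further fibrillar collagen genes are in this list: Col2a1, Col5a3, Col11a1, Col11a2 and Col24a1 differed by -0.02, 0.03, 0.18, 0.03 and 0.08. Col27a1, also fibrillar, and Col22a1 differed by 0.32 (SE 0.21) and 0.20 (SE 0.13), and Col8a1 by -0.22 (SE 0.14). Among 18 other laminin and basement membrane genes, 2 were lower and 1 was higher. The lower genes were Sparcl1, a relative of Sparc (-0.51, SE 0.17), and the laminin gene Lamb2 (-0.34, SE 0.12), and the higher was the laminin gene Lama3 (0.38, SE 0.17).

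Among 44 other elastic fibre and matrix protein genes, 3 were lower and 1 was higher, with a median of -0.13. The lower genes were Ogn, for the small proteoglycan osteoglycin (-0.57, SE 0.15), the TGF-beta-responsive matricellular gene Ccn2 (-1.01, SE 0.35) and Mfap4, for a microfibril protein (-0.31, SE 0.12), which is named here after its values were seen. Ogn measured 5.86, 5.66 and 5.36 in the wild-type livers against 4.93, 5.15 and 5.08 in those of the knockout, with no overlap. Ccn2 measured 7.28, 6.93 and 5.75 in the wild-type livers against 5.35, 6.13 and 5.44 in the Pfn2-/- livers, so that wild-type replicate 3 was again inside the knockout range. Ccn1, a matricellular gene of the same family, was higher (0.68, SE 0.15), at 6.66, 6.41 and 6.85 against 7.50, 7.22 and 7.25.

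Of 34 other matrix protease and inhibitor genes, 1 was lower and 0 were higher. This was Mme, for the membrane peptidase neprilysin (-3.10, SE 0.36, adjusted p = 0.094), which passed the adjusted threshold with array weights, with the replicate number as a block and without knockout replicate 2. The plasminogen activator gene Plat and the matrix protease gene Adamts1 differed by -0.29 (SE 0.13) and -0.28 (SE 0.14). Of 29 matrix receptor genes, 1 was lower, the laminin-binding integrin gene Itga6 (-0.36, SE 0.14), and 0 were higher, with a median of -0.01. Itgb6, which was dim, and the collagen-uptake receptor gene Mrc2 differed by 0.22 (SE 0.15) and 0.17 (SE 0.13).

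In the TGF-beta pathway 23 of 27 genes had a difference below 0, beside 49.9% of all genes, with a median of -0.07. Of these 27 genes, 0 were past the unadjusted mark in limma. The genes of smallest p were the inhibitory SMAD gene Smad6 (-0.27, SE 0.16), Skil, a SMAD corepressor gene that the pathway induces (-0.48, SE 0.28), and Tgif1, another corepressor gene (-0.20, SE 0.12).

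No marker of the cells that make or contact matrix passed the adjusted threshold in limma, and the part of these cells in the result was not tested. For this and the following marker lists, counts below 0 stand beside 49.9% of all genes. All 12 stellate cell markers were measured, 9 with a difference below 0, and their mean was 6.51 to 6.75 in wild-type and 6.42 to 6.57 in Pfn2-/- arrays. Acta2, the smooth muscle actin gene of activated stellate cells and vessels, had the most negative difference among them (-0.53, SE 0.17, adjusted p = 0.854). The 3 stellate cell markers above 0 were Lrat (0.08, SE 0.12), Des (0.07, SE 0.16) and Ngfr (0.05, SE 0.19). Of the 12 markers of portal fibroblasts and smooth muscle 11 were measured and 10 lay below 0, with a mean of 4.96 to 5.17 in wild type and 4.79 to 4.91 in the knockout. Endothelial markers (12 of 12, 11 below 0) had means of 7.26 to 7.57 and 7.19 to 7.37. The array means of the 2 genotypes overlapped for the stellate cell and endothelial lists and did not for the portal list. At an unadjusted p under 0.05, 1 marker of each of these 3 lists was lower, beside 2.62% of all genes. These were Acta2, Myh11 (-0.41, SE 0.16) and Oit3 (-0.32, SE 0.14). No marker of these 3 cell types was dim.

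Kupffer cell and macrophage markers (10 of 10, 9 below 0) had means of 6.61 to 7.28 in wild type and 6.72 to 6.80 in the knockout. Markers of lymphocytes and neutrophils (9 of 10, with S100a8 and Ngp dim) had means of 4.36 to 4.66 and 4.36 to 4.57. Those of mesothelium (7 of 7, 4 above 0) had means of 4.64 to 4.73 and 4.62 to 4.80. Cholangiocyte markers (7 of 8, 5 above 0, with Cftr and Cldn7 dim) had means of 4.70 to 4.76 in wild type and 4.84 to 4.89 in the knockout. Sox9 (0.58, SE 0.20) and Cftr (0.33, SE 0.13) were higher at an unadjusted p under 0.05, beside 2.67% of all genes. Krt7, Krt19 and Cdh1 differed by 0.02 (SE 0.18), 0.05 (SE 0.15) and 0.11 (SE 0.17). Epcam and Cldn7 lay below 0, at -0.10 (SE 0.17) and -0.07 (SE 0.14). The stellate cell and portal lists themselves hold genes of matrix proteins, such as Ecm1, Fbln2 and Dpt.

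**Figure D5:**
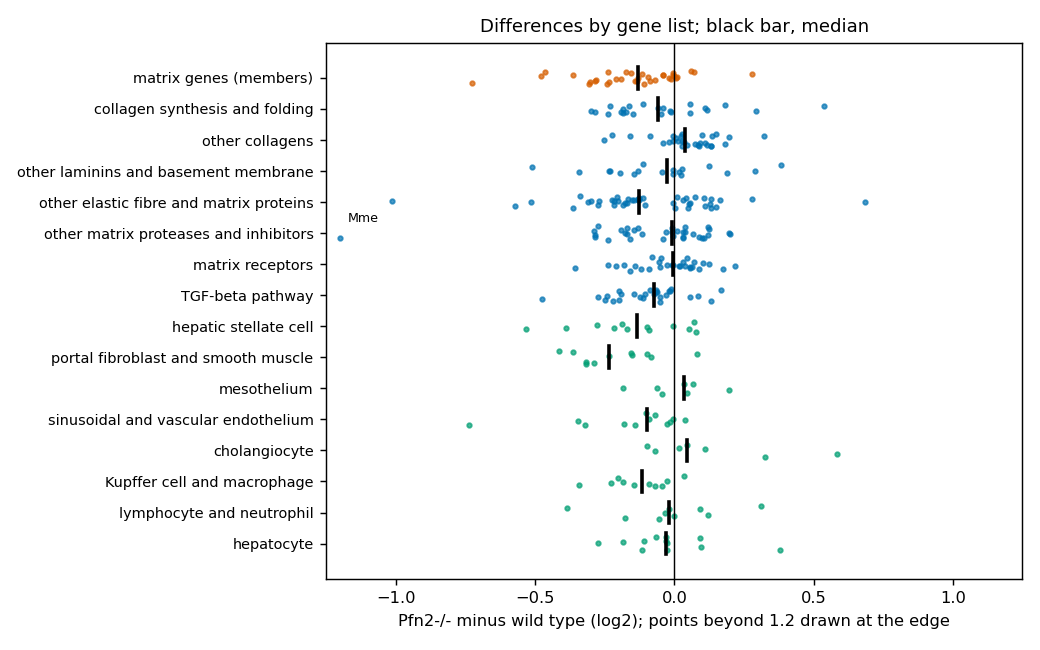
Difference between Pfn2-/- and wild type (log2, horizontal axis) of every gene in each list, with a black bar at the median; orange, the 35 matrix genes, blue, lists of related genes, green, cell type markers. The medians are -0.13 for the matrix genes, 0.04 for other collagens and -0.23 for portal fibroblast and smooth muscle markers, and Mme, at -3.10, is drawn at the edge.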

How the data were processed

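Whole livers of 3 wild-type and 3 Pfn2-/- mice were measured on Affymetrix arrays. Per the labels' protocols, total RNA was extracted with Trizol and labelled by the GeneChip WT PLUS kit, and the tools were RMA and limma, per the submitters' processing notes, where no version, probe set level or build stands. The authors deposited log2 values after RMA, which quantile normalizes arrays and so removes shifts shared by all genes and compresses the differences of dim rows.

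Of 34390 rows, 23521 had exactly 1 symbol in the platform annotation, 1814 had several and 9055 were unlisted. This left 22180 genes, each by its row of highest mean. Genotype was fitted with limma 3.58.1 in R 4.3.3 (lmFit, eBayes without trend, two-sided, Benjamini-Hochberg over all genes). The fit was tested on simulated data, in which the planted differences were larger than any of the matrix genes. It was not tested there for differences as small as those of the matrix genes. The total degrees of freedom were 9.71. The matrix genes and all lists were chosen with earlier results of these data known, so no test over a list was made. Values were given for every array for the 5 matrix genes of smallest p in each direction, those whose groups do not overlap, the brightest of each group and a fixed set of collagen and signal genes, and Eln, Col5a2 and the cell type markers given with differences were added after their values were seen. Of each related list the 3 genes of smallest p are named. Further fibrillar collagen genes, Loxl3 and Loxl4 were added after their values were seen. Replicate numbers were shared by animals of equal age. Deviations from the group means correlated at -0.0823, 0.155 and 0.0202 for numbers 1, 2 and 3 over all genes. Between unlike numbers they correlated at -0.171 to 0.181. These values cannot decide whether the numbers pair the arrays, because the deviations of the 3 arrays in a group depend on each other. Alternatives were other scalings, filters on dim genes, other rows per gene, other variance models, array weights, the replicate block and each array left out.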

Additional observations from a re-analysis of the deposited data

How the results depend on the processing

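The median differences of all matrix genes and of fibrillar, basement membrane and remodelling genes stayed below 0 under every alternative run and moved by less than the spread between replicates. With single arrays left out they ranged from -0.17 to -0.10, from -0.29 to -0.20, from -0.16 to -0.06 and from -0.25 to -0.16. Under the other scalings 27 or 28 of 35 matrix genes lay below 0, against 29. No matrix gene passed the adjusted threshold under any alternative. The count of matrix genes lower at an unadjusted p under 0.05 was 4 in the comparison of all arrays and 1 to 7 with single arrays left out; 6 with array weights and 3 under the other scalings. The share of all genes lower by that mark moved too, from 2.62% to between 2.06% and 3.71% with single arrays left out, 3.67% with array weights and between 2.42% and 2.62% under the scalings. With the replicate number as a block the count of lower matrix genes was 2, Postn and Timp3 (2.98% of all genes), and 7 of all genes passed the adjusted threshold. The deviations of the arrays cannot decide whether this pairing holds. The count of higher matrix genes was 0 to 1 with single arrays left out. Of all genes, 0 passed with all arrays, 0 to 6 with single arrays left out and 2 with array weights. Signs turned for Lox (-0.0303 with repeated quantile normalization, -0.0193 with cyclic loess, -0.0242 with array weights), Col6a1 (-0.035 with the mean of its rows, -0.08 with the lowest row, -0.0101 with array weights) and Col5a1 (0.10 with the lowest row). With single arrays left out, the ranges that crossed 0 were -0.17 to 0.11 for Lox, -0.0617 to 0.0633 for Col6a1, -0.125 to 0.12 for Col4a2, -0.26 to 0.01 for Col1a2, -0.0183 to 0.153 for Fn1, -0.177 to 0.0183 for Tgfb1, -0.21 to 0.01 for Col18a1 and -0.0233 to 0.222 for Timp1. The causes were not tested. Genes below the median of gene means, such as Thbs1, Loxl1 and Lox, had no value under the filter at the median.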
